A study of Mus musculus with 49 samples.

Results

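The dose trend after 12 weeks of arsenate was examined in the urinary bladders of 20 of the 49 mice of the study, chosen by their labels as those that drank arsenate until the 12-week harvest. The water-drinking mice were left out of the trend, so it does not rest on the water group. Each array holds the RNA of 1 whole bladder, and the 4 groups of 5 mice drank 0.5, 2, 10 or 50 ppm arsenate, an inorganic pentavalent arsenic salt, in drinking water given ad lib. All were adult female C57Bl/J mice of 155 days, with no allele or second agent named in the labels. For each gene the slope of its log2(signal + 16) over dose ranks 1 to 4 was fitted, so a slope is a log2 difference per step of dose and the offset of 16 compresses changes in dim genes. The 5 water mice of the same harvest are given beside the doses as values only. Adjusted p-values are from limma with Benjamini-Hochberg adjustment over the 13676 genes tested, and a gene is called at an adjusted p under 0.05.

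Arsenic drunk with water leaves the body largely through the urine, so the urothelium, the epithelium that lines the bladder, is in direct contact with it. Trivalent arsenicals bind protein thiols, and cells answer through NRF2, a transcription factor that switches on detoxifying and glutathione genes, and through chaperones and metal-binding proteins. Immediate early genes such as Egr1 and Nr4a1 are switched on within minutes by growth factors, stretch and other stimuli and their RNA decays quickly. The bladder label was checked against markers of its cell types. The mean level over 19 umbrella and intermediate cell genes lay between 12.95 and 13.64 in the 20 arrays, and that over 19 smooth muscle genes lay between 12.11 and 13.13. Of 23 listed liver genes, 8 passed the filter on dim probe sets, with a mean of 7.57 to 8.33. Among these 8, Cyp2e1 and Ttr were bright, with mean levels of 12.83 and 12.5. Markers of both main layers of the bladder were thus near the top of the signal range in every array.

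Promoter sequences are shown for 3 genes whose trends are described below and whose window holds the binding motif of the factor that their group is known for. Egr2 has 5 windows, of which 4 hold the box and 1 is printed. All are from RefSeq on GRCm38.p6 and give the 250 bases before the annotated start, on the strand of the gene, with motif matches in capitals. Egr2 (chr10:67537316-67537565, plus strand) and Zfp36 (chr7:28379229-28379478, minus strand) each hold a CArG box, the site of serum response factor, which drives many immediate early genes. Ugdh (chr5:65435843-65436092, minus strand) holds TGACNNNGC, the core of the antioxidant response element that NRF2 binds, once on each strand.
Egr2: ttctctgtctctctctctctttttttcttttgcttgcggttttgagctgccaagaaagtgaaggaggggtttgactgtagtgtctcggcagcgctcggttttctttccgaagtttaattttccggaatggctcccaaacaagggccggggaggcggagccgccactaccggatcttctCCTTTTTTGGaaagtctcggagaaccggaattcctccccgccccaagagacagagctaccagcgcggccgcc
Zfp36: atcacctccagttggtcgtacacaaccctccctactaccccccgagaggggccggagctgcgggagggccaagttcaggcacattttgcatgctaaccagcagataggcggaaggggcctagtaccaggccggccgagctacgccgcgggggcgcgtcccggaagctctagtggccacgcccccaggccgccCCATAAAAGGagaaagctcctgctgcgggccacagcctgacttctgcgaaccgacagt
Ugdh: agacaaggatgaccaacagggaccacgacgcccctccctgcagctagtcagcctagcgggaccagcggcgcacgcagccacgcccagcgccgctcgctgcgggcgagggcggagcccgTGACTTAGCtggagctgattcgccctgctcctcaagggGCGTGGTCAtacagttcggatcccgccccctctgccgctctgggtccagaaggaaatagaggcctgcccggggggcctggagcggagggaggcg
The CArG box starts 72 bases before the start of Egr2 and 58 bases before that of Zfp36. The matches in Ugdh start 132 and 94 bases before its start. Searched on both strands, 1.47% of 32851 mouse promoter windows of this length hold a CArG box and 10.2% hold TGACNNNGC. Windows were matched for the other called genes described with these groups except Egr1 and Gsta4. The windows of Nr4a1, Klf2, Spry1, Jund and Zfp36l1 hold no CArG box and those of Nqo1 and Gstm1 hold no TGACNNNGC, which says only that these letters are not in these windows.

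Across the 4 doses, 535 genes had a called slope, 3.91% of those tested. Of these 311 rose (2.27%) and 224 fell (1.64%), and 2642 genes had an unadjusted p under 0.05. Most slopes were shallow. For 363 of the 535 the whole change over the 3 steps was under 1.5-fold. Between the ends of the range, 50 ppm against 0.5 ppm, 168 genes were called (1.23%), 95 higher (0.695%) and 73 lower (0.534%). After centring each array on its median 68.6% of the called genes of this contrast were higher, against 56.5% as deposited.

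Among neighbouring doses, called genes were found for 10 ppm against 2 ppm alone. Compared with 2 ppm, 172 genes were called at 10 ppm (1.26%), 86 higher and 86 lower (0.629% each). The count was 58 without mouse 3 of the 2 ppm group and 346 without mouse 1 of the 0.5 ppm group. The other neighbouring doses gave no called gene in limma. For 2 ppm against 0.5 ppm 0 were called and 1041 had an unadjusted p under 0.05, and for 50 ppm against 10 ppm 0 were called and 1203 had one. A test of departure from a straight line over ranks called 0 genes (1716 at an unadjusted p under 0.05), so uneven spacing was not shown for any single gene. The shape of the 535 genes with a called slope is a description only, since the slope on these arrays chose them, weights the middle step most and favours ordered and separated doses. The step between 2 and 10 ppm was the largest of the 3 in size in 446 of them (83.4%), and in 40.1% of all genes tested. Its median size in these genes was 0.312, against 0.0957 for the step below it and 0.0806 for the step above it. Over all genes tested the 3 medians were 0.117, 0.141 and 0.123 in the order of the steps. The means of the 4 doses were strictly in dose order in 195 of the 535 genes (36.4%), and in 11.1% of all genes tested.

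**Figure D1:**
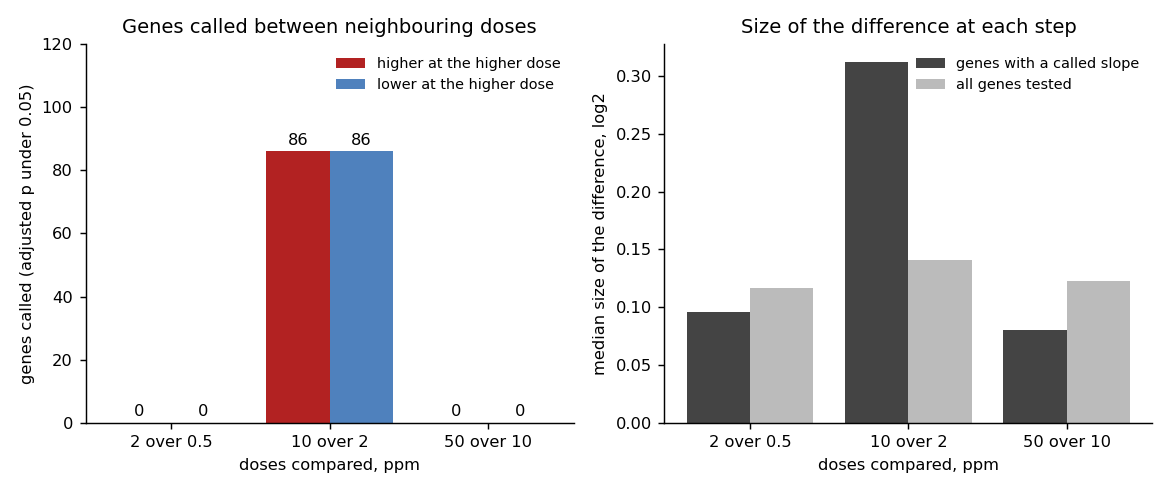
Left, genes called between neighbouring doses at 12 weeks, higher (red) and lower (blue) at the higher dose, counted at an adjusted p under 0.05 with 5 mice a dose. Right, median size of the log2 difference at each step for the 535 genes with a called slope (dark) and for all 13676 genes tested (light). Only the step from 2 to 10 ppm holds called genes, and in the called genes it is the largest, with a median of 0.312.

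Taken as pairs of doses, 10 and 50 ppm differed from 0.5 and 2 ppm in 1132 genes (8.28%), 596 higher (4.36%) and 536 lower (3.92%). This contrast was chosen after the data were seen. The steps within the pairs, 2 over 0.5 ppm and 50 over 10 ppm averaged, gave 0 called genes and 491 at an unadjusted p under 0.05. The water mean, which the slope did not use, lay closer to the mean of 0.5 and 2 ppm than to that of 10 and 50 ppm in 404 of the 535 genes (75.5%, against 55% of all genes tested). The water mice also lay nearer to 0.5 and 2 ppm in the poly-A, hybridization and OD260 measures of the arrays given below. The part of these measures in the count was not tested.

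Mouse 1 of the 0.5 ppm group lay toward the 10 and 50 ppm mice in many of the genes below. This mouse was singled out after the data were seen, for its place against the trend. Leaving it out therefore favours the trend, here and below. Without it, 1398 genes were called (745 higher and 653 lower), and 526 of the 535 were among them. Leaving out another mouse of the 0.5 ppm group gave 185 without mouse 2, 280 without mouse 3, 229 without mouse 4 and 268 without mouse 5. The count was 350 without mouse 5 of the 10 ppm group, 814 without mouse 3 of the 50 ppm group and 179 without mouse 5 of the 50 ppm group, and between 358 and 623 without any of the others. In 32 of the 535 genes the 10 arrays of 10 and 50 ppm did not overlap the 10 arrays of 0.5 and 2 ppm (0.256% of all genes tested), a count that the choice of the genes by their slope favours. Without mouse 1 of the 0.5 ppm group it was 81 of the 535 (0.724% of all genes tested).

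Measures of the arrays themselves split at the same dose. Poly-A spike controls are foreign transcripts added to the RNA before labelling, and their mean log2 signal was 10.3 ± 0.235 at 0.5 ppm, 10.21 ± 0.0888 at 2 ppm, 9.652 ± 0.213 at 10 ppm and 9.844 ± 0.389 at 50 ppm (SD, n = 5). Their slope was -0.192 per rank (two-sided permutation p = 0.00488, adjusted 0.0195 over 8 measures). Averaged over 10 and 50 ppm they were 0.504 lower than over 0.5 and 2 ppm (-0.504, exact permutation p = 0.000801, adjusted 0.0032). For these measures too, here and below, the pairs of doses were chosen after the data were seen. Hybridization controls, added after labelling, averaged 11.34, 11.31, 11.76 and 11.72 in dose order and were higher by 0.416 at 10 and 50 ppm (exact permutation p = 0.0036). The labels' OD260, the ultraviolet absorbance of the RNA after a dilution that was the same for all arrays, averaged 2.117, 2.443, 1.295 and 1.607 in dose order. It differed by -0.829 between the same pairs of doses (exact permutation p = 5.41e-05), and its ratio to the absorbance at 280 nm averaged 1.96, 1.961, 1.94 and 1.908 (slope -0.0177, permutation p = 0.0011, adjusted 0.0088). The RNA integrity number did not pass the test (slope 0.024, permutation p = 0.443), nor did the array median or the 3' to 5' ratios of Gapdh and Actb (permutation p between 0.437 and 0.979). The contrast planned for these measures, 50 against 0.5 ppm, passed for none after adjustment over the 8 measures. Its exact permutation p was 0.0794 for poly-A (adjusted 0.212) and 0.111 for the hybridization controls (adjusted 0.222). It was 0.0159 for OD260 (adjusted 0.0636) and 0.00794 for the 280 nm ratio (adjusted 0.0635). The water mice averaged 10.71 in the poly-A controls, 11.2 in the hybridization controls and 2.257 in OD260.

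The mice of a dose also share the first number of their label, which is 7 at 0.5 ppm, 12 at 2 ppm, 15 at 10 ppm and 20 at 50 ppm. What that number stands for is not given in the sources used here, and it cannot be told apart from dose. With the poly-A level as a covariate of the slope 0 genes were called, with OD260 0, with the hybridization controls 73 and with the RNA integrity number 345. The 10 ppm against 2 ppm contrast moved otherwise: it had 736 called genes with the poly-A level as a covariate and 0 with OD260. Each of the 76 genes with a called slope that the naming rule chose lost its call with the poly-A level, and each lost it with OD260. These measures follow dose, so a lost call cannot tell their part from that of dose. In lists described below, the poly-A covariate moved the median slope of NRF2 targets from 0.0429 to 0.0628. That of umbrella and intermediate cell markers went from 0.0787 to 0.103. The median moved toward 0 in EGR and NR4A factors (-0.418 to -0.27) and in collagen and matrix genes (-0.0677 to -0.058). How far these measures take part in the gene results was not tested beyond these fits.

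**Figure D2:**
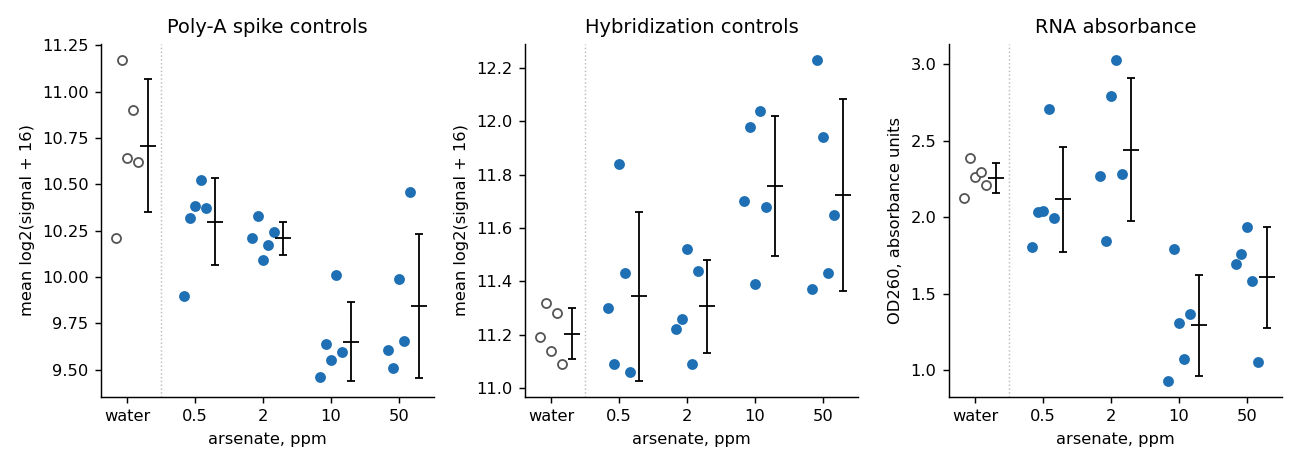
Poly-A spike controls, hybridization controls (both mean log2 signal of their probe sets) and OD260 of the RNA against dose at 12 weeks, 1 point per mouse, with the mean and SD at the right of each group. Water mice (open points) are not in the trend. The 10 and 50 ppm mice lie lower in the poly-A controls and OD260 and higher in the hybridization controls than the 0.5 and 2 ppm mice, with overlap in each.

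The steepest slope of all called genes was that of Egr1, a zinc finger transcription factor induced by growth and stress signals. Its log2 signal was 10.91, 12.35, 11.89, 13.31 and 11.78 in the 0.5 ppm mice and 11.45, 10.94, 10.16, 11.87 and 10.04 in the 2 ppm mice. It was 9.41, 10.05, 10.00, 9.45 and 9.99 in the 10 ppm mice and 9.43, 9.78, 9.98, 9.17 and 10.25 in the 50 ppm mice. All 0.5 ppm mice lay above all 10 and 50 ppm mice, and the 2 ppm mice reached into both ranges. The slope was -0.81 ± 0.12 (SE, adjusted p = 0.00337) and the water mean was 12.60. The 10 and 50 ppm groups lay close together, as did no other neighbouring doses. The call was kept without each mouse in turn, with slopes of -0.87 to -0.70, and was lost with the poly-A level as a covariate (-0.57 ± 0.13, adjusted p = 0.124).

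Nr4a1, an orphan nuclear receptor of the same early class, had 10.62, 11.91, 10.99, 12.89 and 11.15 in the 0.5 ppm mice and 11.63, 10.23, 9.35, 12.77 and 9.99 in the 2 ppm mice. The 10 ppm mice had 10.98, 9.98, 9.19, 9.02 and 9.36 and the 50 ppm mice 8.84, 9.67, 10.80, 9.23 and 9.55. The 2 ppm mice spread over more than 3 log2 units, and 1 mouse in each of the 10 and 50 ppm groups lay within the range of the 0.5 ppm mice. The slope of Nr4a1 was -0.68 ± 0.17 (adjusted p = 0.0254), a call lost in 3 of the 20 fits that leave out 1 mouse. Egr2, whose promoter is printed above, averaged 7.61, 7.27, 6.72 and 6.38 in dose order, against 7.49 in water (slope -0.43 ± 0.09, adjusted p = 0.00951). Of the 6 measured EGR and NR4A factors 3 fell (1.64% of all genes tested did) and 0 rose. The count was 2 without mouse 2 or 4 of the 0.5 ppm group or mouse 5 of the 50 ppm group, and 4 without mouse 1 of the 0.5 ppm group or mouse 2 of the 2 ppm group. Egr3 had a slope of -0.41 ± 0.13 (adjusted p = 0.063), while those of Nr4a3 (0.07 ± 0.15) and Nr4a2 (0.03 ± 0.17) were near 0. The median slope of the 6 genes was -0.42, against -0.0074 over all genes tested.

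Among the AP-1 subunits, the dimer partners that bind DNA downstream of growth and stress kinases, 1 of 9 fell. Of all genes tested 1.64% fell. Jund averaged 11.87 ± 0.40, 11.91 ± 0.31, 11.06 ± 0.19 and 11.09 ± 0.34 in dose order (SD, n = 5), with a slope of -0.32 ± 0.06 (adjusted p = 0.00845) and a difference of -0.84 at 10 ppm compared with 2 ppm (adjusted p = 0.0187). It therefore stepped down between those doses, with means close to each other on either side. Fosb had the steeper slope of -0.57 ± 0.17 with an adjusted p of 0.063, and Atf3, Jun and Fos had slopes of -0.44 ± 0.16, -0.19 ± 0.08 and -0.18 ± 0.09 that did not pass. Fos averaged 11.77, 11.02, 11.43 and 11.04 over the doses, against 12.92 in water, so most of its distance lay between water and arsenate and not among the doses.

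The feedback regulators and KLF factors hold genes that are induced with the early factors and limit the same signals. Of 24 measured, 3 fell and 1 rose (1.64% and 2.27% of all genes tested did), with a median slope of -0.036. Klf2, a factor that blood flow induces in endothelium, had 9.62, 10.80, 10.57, 11.00 and 10.22 at 0.5 ppm and 10.08, 9.84, 10.39, 10.31 and 10.07 at 2 ppm. It had 9.32, 9.80, 9.90, 9.37 and 9.32 at 10 ppm and 9.09, 9.38, 9.89, 9.46 and 9.46 at 50 ppm. Apart from mouse 1 of the 0.5 ppm group, the lower doses of Klf2 overlapped the higher ones by a single 2 ppm mouse at 9.84 (slope -0.36 ± 0.06, adjusted p = 0.00539). Spry1, an inhibitor of receptor tyrosine kinase signalling, fell by 0.26 ± 0.04 per rank (adjusted p = 0.00539). Zfp36, which binds AU-rich elements and speeds the decay of early and cytokine mRNAs, had a slope of -0.14 ± 0.04 (adjusted p = 0.0441), lost in 17 of the 20 fits without 1 mouse. Its family member Zfp36l1 rose (0.15 ± 0.03, adjusted p = 0.00845).

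**Figure D3:**
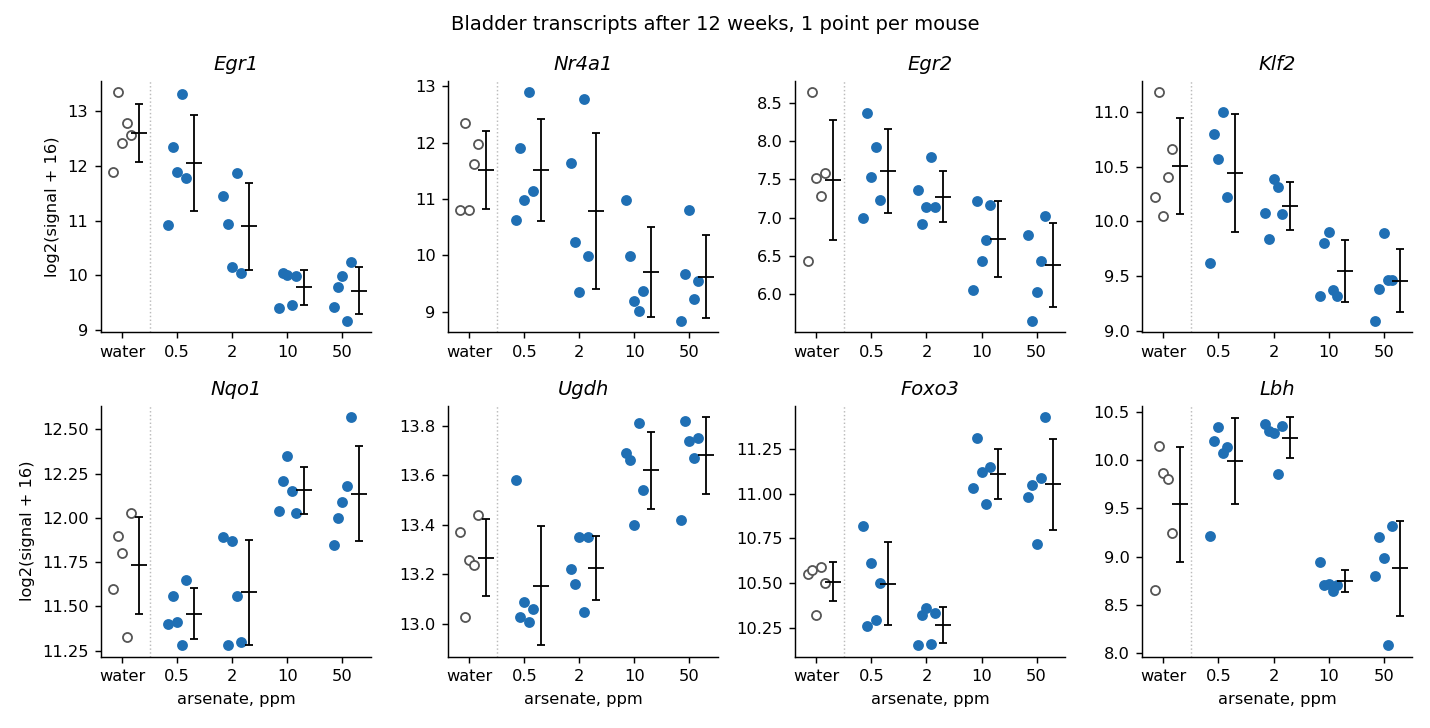
Log2(signal + 16) of 8 genes against dose at 12 weeks, 1 point per mouse, with the mean and SD at the right of each group. Water mice (open points) are not in the trend. The plotted means of Egr1 fall up to 10 ppm, whereas those of Lbh, Foxo3, Nqo1 and Ugdh differ most between 2 and 10 ppm. No departure from a straight line was called for any gene. Mouse 1 of the 0.5 ppm group (leftmost point) lies toward the higher doses in Lbh, Klf2, Ugdh and Foxo3.

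Of 33 measured NRF2 targets 4 rose (2.27% of all genes tested did) and 0 fell, and 10 rose at an unadjusted p under 0.05. Leaving out 1 mouse gave 3 to 6 rises, with 6 without mouse 1 or 4 of the 50 ppm group. The mean over the list was 11.83, 11.95, 12.00 and 11.96 in dose order, with water at 11.98, above the 0.5 ppm group. Nqo1, a quinone reductase widely used as a readout of NRF2, had 11.40, 11.56, 11.41, 11.28 and 11.65 at 0.5 ppm and 11.89, 11.28, 11.87, 11.56 and 11.30 at 2 ppm. It had 12.04, 12.21, 12.35, 12.15 and 12.03 at 10 ppm and 11.85, 12.00, 12.09, 12.18 and 12.57 at 50 ppm. All 0.5 ppm mice lay below all 10 and 50 ppm mice, and only 2 of the 2 ppm mice reached the lowest 50 ppm mouse. The slope of Nqo1 was 0.26 ± 0.05 (adjusted p = 0.00539), with 0.58 higher at 10 than at 2 ppm (adjusted p = 0.0282) and a water mean of 11.73.

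Ugdh makes UDP-glucuronic acid, the donor for glucuronidation. Its signal was 13.58, 13.03, 13.09, 13.01 and 13.06 at 0.5 ppm, 13.22, 13.16, 13.35, 13.05 and 13.35 at 2 ppm, 13.69, 13.66, 13.40, 13.81 and 13.54 at 10 ppm and 13.42, 13.82, 13.74, 13.67 and 13.75 at 50 ppm. Only mouse 1 of the 0.5 ppm group kept the higher doses of Ugdh from standing apart. The slope was 0.20 ± 0.04 with it (adjusted p = 0.00539) and 0.23 ± 0.03 without it, a value that the choice of this mouse favours. The glutathione transferases Gsta4 (0.14 ± 0.03) and Gstm1 (0.16 ± 0.04) also rose, at mean levels near 15. Their calls were lost after quantile normalization, which left Nqo1 and Ugdh as the 2 called targets. Gstm1 has close paralogs that its probe sets could also bind. The oxidative stress genes Hmox1 (0.15 ± 0.05, adjusted p = 0.0941) and Gclm (0.09 ± 0.03, adjusted p = 0.0536) did not pass. Hmox1 averaged 8.54, 8.94, 8.72 and 9.10 in dose order, which is no step at 10 ppm. The median slope of the list was 0.043, or 0.017 after quantile normalization.

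Genes of arsenic transport and metabolism were mostly flat. Of 18 measured, 2 rose and 0 fell, where 2.27% of all genes tested rose and 1.64% fell. Aqp3, an aquaglyceroporin that can carry trivalent arsenic across membranes, averaged 12.71 ± 0.15, 12.83 ± 0.27, 13.50 ± 0.25 and 13.24 ± 0.16 in dose order (SD, n = 5; slope 0.23 ± 0.05, adjusted p = 0.0175), with 0.67 higher at 10 than at 2 ppm (adjusted p = 0.00933). Gsto1, an omega-class glutathione transferase that reduces pentavalent arsenic metabolites, rose by 0.13 ± 0.03 per rank (adjusted p = 0.0279), a call lost after quantile normalization. Another bright probe set of Gsto1, with a mean level of 13.78, had a slope of 0.02 ± 0.04. As3mt, the arsenic methyltransferase, had a slope of -0.05 ± 0.05 (adjusted p = 0.569). The zinc exporter Slc30a1 rose (0.17 ± 0.04, adjusted p = 0.0327), the only called member of 15 measured metal-response genes. A dimmer probe set of Slc30a1, with a mean level of 6.36, had a slope of -0.36 ± 0.15. The metallothioneins did not pass, with slopes of -0.0051 ± 0.0444 for Mt1 and -0.08 ± 0.05 for Mt2.

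Of 19 measured umbrella and intermediate cell markers 5 rose and 0 fell in the values as deposited, where 2.27% of all genes tested rose, and 13 rose at an unadjusted p under 0.05. Their mean level was 13.10, 13.25, 13.40 and 13.28 in dose order, against 13.33 in water. Leaving out 1 mouse gave 1 to 7 rises, with 1 without mouse 2 or 4 of the 0.5 ppm group or mouse 5 of the 50 ppm group, 7 without mouse 1 of the 50 ppm group and 2 or 3 in most other fits. Median centring or the replicate block left 2. The pioneer factor Foxa1 rose by 0.17 ± 0.03 per rank (adjusted p = 0.00539), with 12.87 to 13.10 in the 0.5 ppm mice, 13.12 to 13.31 in the 2 ppm mice, 13.40 to 13.82 in the 10 ppm mice and 13.30 to 13.63 in the 50 ppm mice. The 0.5 ppm mice of Foxa1 lay below all others. The keratins Krt19, Krt18 and Krt7 and the uroplakin Upk1b rose by 0.11 to 0.13 per rank. After quantile normalization Foxa1 was the 1 member still called, and the median slope of the list was 0.0036, against 0.079 as deposited. Upk2 (0.01 ± 0.03) and Upk1a (0.07 ± 0.03) were not called either way. Among 14 basal cell markers 3 rose (2.27% of all genes tested did). These were Trp63, the master factor of stratified epithelia (0.23 ± 0.05), Sox4 (0.16 ± 0.03) and the secreted ligand Shh (0.12 ± 0.03). After quantile normalization 2 basal markers rose, and the median slope of their list was 0.0143, against 0.0292 as deposited. The keratins Krt5 (0.02 ± 0.05) and Krt14 (0.09 ± 0.13) of the same list were not called, and the mean over the basal list was 10.40, 10.55, 10.47 and 10.54 in dose order. Arrays of whole bladder cannot tell fewer cells of a type from less RNA per cell, here and in all groups below.

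The slope also followed how bright a gene was. The median slope was -0.051 in the 702 genes with a mean level under 6, 0.001 in those between 10 and 11 and 0.096 in the 129 genes at 14 or more. Of these 129 genes 54 rose (41.9%) and 0 fell. After quantile normalization, which gives all arrays the same distribution, 1 of the 129 rose and 1 fell, and their median slope was 0.005. The 99th percentile of the arrays averaged 13.525, 13.543, 13.624 and 13.641 in dose order, although the authors had scaled every array to the same trimmed mean. Over all genes, 397 had a called slope after quantile normalization (213 higher, 184 lower), and 368 of these were among the 535. Of the 311 rises 206 were kept and of the 224 falls 162. Centring each array on its median moved the balance the other way, with 71.7% of its called slopes higher, against 58.1% as deposited.

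**Figure D4:**
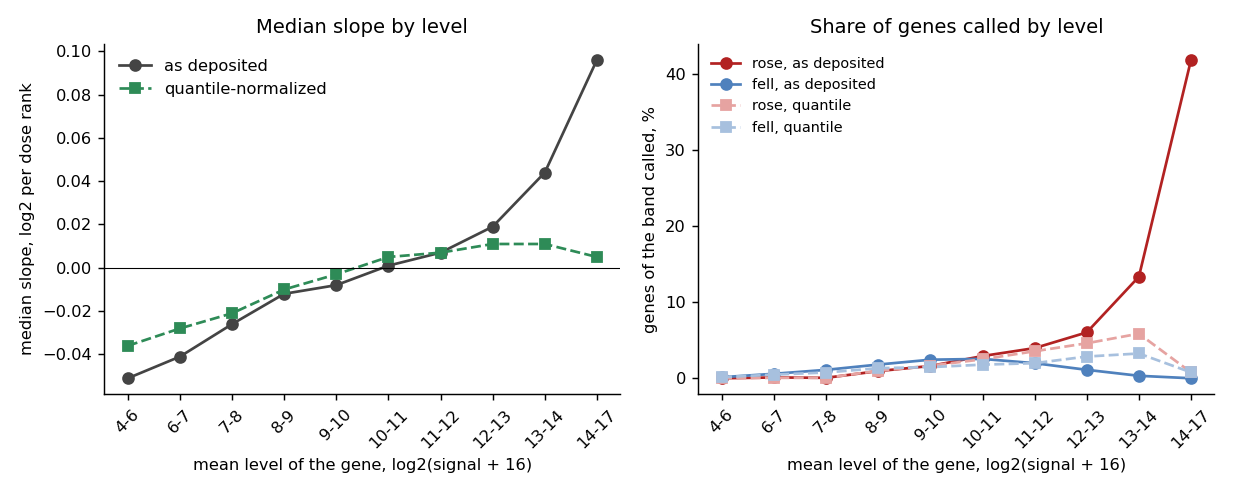
Left, median slope in log2 per dose rank for genes grouped by their mean level over the 20 arrays, as deposited (circles) and after quantile normalization (squares). Right, share of each group of genes called as higher (red) or lower (blue) over the doses, with quantile-normalized values as paler dashed lines. As deposited, 41.9% of the 129 brightest genes rose and 0 fell, whereas quantile normalization leaves 1 of each.

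Ribosomal protein genes are among the brightest on the arrays. Of 23 measured, 13 rose and 0 fell as deposited, with slopes from 0.10 to 0.15, while after quantile normalization 0 rose and 1 fell. As deposited 2.27% of all genes tested rose and 1.64% fell, to be set beside each list of this paragraph. Leaving out 1 mouse gave 0 to 16 rises: 0 without mouse 2 of the 0.5 ppm group or mouse 5 of the 50 ppm group, 6 without mouse 4 of the 0.5 ppm group or mouse 2 of the 50 ppm group, 8 without mouse 5 of the 0.5 ppm group and 16 without mouse 1 of the 50 ppm group. Rplp0, a stalk protein of the large subunit, averaged 14.92, 14.95, 15.33 and 15.30 in dose order. Its means differed most between 2 and 10 ppm, a step for which no gene of this list was called. Of 40 measured genes of oxidative phosphorylation, 2 rose (Atp5c1 and Cox6a1) and 0 fell as deposited, and 0 rose and 3 fell after quantile normalization. Their median slope was 0.046 as deposited and -0.00011 after it. Another bright probe set of Cox6a1 had a slope of 0.03 ± 0.02. Leaving out 1 mouse gave between 1 and 7 called genes of this list, with 7 (5 that rose and 2 that fell) without mouse 4 of the 50 ppm group, 5 without mouse 1 of that group and 4 without mouse 1 of the 0.5 ppm group. It was 1 without mouse 2 or 4 of the 0.5 ppm group, mouse 1, 3 or 5 of the 2 ppm group, mouse 5 of the 10 ppm group or mouse 2 or 5 of the 50 ppm group. Of 31 proteasome subunits 3 rose under either scaling, namely Psma3 (0.11 ± 0.02), Psmb2 (0.16 ± 0.03) and Psmd11 (0.09 ± 0.02). Their median slope was 0.058 as deposited and 0.052 after quantile normalization, and without mouse 4 of the 50 ppm group 4 rose and 1 fell. In the smooth muscle list the actin gene Acta2 rose (0.14 ± 0.03, mean level about 15), 1 of 19, and it too lost its call after quantile normalization.

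In the lists that follow, counts of called members are to be read against the 2.27% of all genes tested that rose, the 1.64% that fell and the 19.3% with an unadjusted p under 0.05. Pdia4, a disulfide isomerase of the endoplasmic reticulum, averaged 8.95 ± 0.19, 8.84 ± 0.55, 9.91 ± 0.13 and 9.63 ± 0.36 in dose order (slope 0.31 ± 0.08, adjusted p = 0.0298). It was 1.08 higher at 10 than at 2 ppm (adjusted p = 0.00797). A dimmer probe set of Pdia4, with a mean level of 5.62, had a slope of -0.18 ± 0.09. Of 30 endoplasmic reticulum stress genes 2 rose, Pdia4 and the cochaperone Sdf2l1 (0.25 ± 0.05), and 1 fell, the stress sensor kinase Ern1 (-0.15 ± 0.03). The 29 measured heat shock genes had 2 that rose, Hspa8 (0.13 ± 0.03) and Dnajb6 (0.12 ± 0.03), and 0 that fell. The probe set used for Hspa8 had a mean level of 14.39. Other bright probe sets of Hspa8 had slopes of 0.11 ± 0.03 (mean level 14.1) and -0.12 ± 0.08 (12.89). Those of Dnajb6 had 0.03 ± 0.03 (9.82) and 0.19 ± 0.05 (9.65).

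Foxo3, a forkhead factor that AKT keeps out of the nucleus, had 10.82, 10.26, 10.61, 10.29 and 10.5 at 0.5 ppm, 10.15, 10.32, 10.36, 10.16 and 10.33 at 2 ppm, 11.03, 11.31, 11.12, 10.94 and 11.15 at 10 ppm and 10.98, 11.05, 10.72, 11.09 and 11.43 at 50 ppm. Without mouse 1 of the 0.5 ppm group the upper and lower doses of Foxo3 did not overlap. The slope was 0.25 ± 0.05 (adjusted p = 0.012), and the level was 0.84 higher at 10 than at 2 ppm (adjusted p = 0.00144). Of its other probe sets, one had a slope of 0.07 ± 0.04 and a dim one 0.00 ± 0.12. In the list of insulin, AKT and FOXO genes 2 of 24 rose, Foxo3 and the kinase Gsk3b (0.20 ± 0.04), and 1 fell, Foxo4 (-0.14 ± 0.04). The other probe sets of Gsk3b had slopes from 0.02 ± 0.06 to 0.09 ± 0.11, so its call rests on 1 probe set. The glucocorticoid-responsive Klf9 rose (0.25 ± 0.06) and Ddit4, an inhibitor of mTORC1, fell (-0.18 ± 0.04), 1 each way of 17. Pcna, the sliding clamp of DNA polymerases, rose (0.15 ± 0.03) and Rfc4, a subunit of its loader, fell (-0.16 ± 0.04) among 24 replication genes. None of 25 mitotic, 33 DNA repair, 19 clock, 23 interferon-stimulated and 20 inflammatory genes was called in either direction, where 3.91% of all genes tested were, with 0, 5, 3, 3 and 4 at an unadjusted p under 0.05.

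Among the steepest slopes outside these lists, Lbh, a cofactor expressed in developing limb and heart, had 9.21, 10.20, 10.34, 10.07 and 10.14 at 0.5 ppm, 10.38, 10.30, 10.28, 9.86 and 10.35 at 2 ppm, 8.94, 8.71, 8.72, 8.64 and 8.71 at 10 ppm and 8.80, 9.20, 8.99, 8.08 and 9.32 at 50 ppm. Apart from mouse 1 of the 0.5 ppm group, all lower-dose mice lay above all higher-dose mice. The slope of Lbh was -0.48 ± 0.09 (adjusted p = 0.00539), and the difference at 10 compared with 2 ppm was -1.49 (adjusted p = 0.00144). Of its other probe sets one had a slope of -0.35 ± 0.10 and one of 0.18 ± 0.05.

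Clcn5, a chloride and proton exchanger of endosomes, averaged 10.94, 10.58, 10.36 and 9.17 in dose order. Its means differed most between 10 and 50 ppm, though no gene was called for that step or for departure from a straight line. In Clcn5 all 50 ppm mice lay below all 0.5 ppm mice, the nearest at 10.87 against 10.90. Its other 3 probe sets had slopes of 0.03 to 0.04, so its call rests on 1 probe set. Krt13, a keratin of stratified epithelia, averaged 5.70, 6.22, 6.24 and 7.41 in dose order (slope 0.51 ± 0.14, adjusted p = 0.0424). It had 6.94 to 8.23 in the 50 ppm mice and 4.98 to 6.84 in the 0.5 ppm mice. Its call was lost in 14 of the 20 fits without 1 mouse. Dimmer probe sets of Krt13 had slopes of -0.01 ± 0.06 (mean level 4.34) and 0.09 ± 0.09 (4.73). Krt13 was the 1 called member of 14 squamous and cornified envelope genes, of which 8 had a slope below 0. Of all genes tested 2.27% rose. The X-inactivation RNA Xist averaged 13.13, 13.08, 13.81 and 13.74 (slope 0.26 ± 0.05, adjusted p = 0.00539) on the probe set used, and -0.03 ± 0.07 was the slope of another bright one. The other falls among the 12 steepest, counted over called genes with a group mean of 7 or more, were Nynrin, the zinc finger factor Maz, Plekho2, the molybdenum cofactor enzyme Mocs1, the heat shock factor Hsf4, Cd300lg and the aminopeptidase Anpep, with slopes from -0.47 to -0.38. The other rises were 4932431P20Rik, Rpl27a, G530011O06Rik, the phosphatase subunit Ppp4r3a, Heca, the cholesterol synthesis enzyme Hsd17b7 and the phospholipid enzyme Selenoi, with slopes from 0.27 to 0.43. Another probe set of Heca, with a mean level of 9.02, had a slope of 0 ± 0.05. For 4932431P20Rik the 10 and 50 ppm mice had 8.30 to 8.91 and the 0.5 and 2 ppm mice 7.11 to 7.86, a full separation.

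Stromal markers did not follow the dose order. Of 39 collagen and matrix genes 0 were called over the doses and 11 fell at an unadjusted p under 0.05, and the median slope was -0.068. After quantile normalization 2 fell, and 3 fell without mouse 1 of the 0.5 ppm group, 4 without mouse 3 of the 50 ppm group and 1 without mouse 4 of the 10 ppm group or mouse 1 or 2 of the 50 ppm group. Their median difference was -0.23 at 2 compared with 0.5 ppm, -0.32 at 10 compared with 2 ppm and 0.36 at 50 compared with 10 ppm. Col1a1 averaged 13.48, 12.92, 11.90 and 12.70 in dose order, with a difference of -1.02 at 10 compared with 2 ppm (adjusted p = 0.0156) and a slope of -0.34 ± 0.10 (adjusted p = 0.0551). Another probe set of Col1a1, with a mean level of 10.33, had a slope of 0.01 ± 0.07. The mean over 14 fibroblast markers ranged from 12.40 to 12.67, 12.21 to 12.50, 11.71 to 12.32 and 12.16 to 12.49 in dose order, and that over 19 smooth muscle markers from 12.69 to 12.98, 12.25 to 12.77, 12.11 to 12.67 and 12.68 to 13.13. Both lists had their lowest group mean at 10 ppm, and smooth muscle at 50 ppm reached above all lower-dose mice. The part of this tissue makeup in the other trends was not tested. Of the 14 fibroblast, 16 endothelial and 17 macrophage markers 0 were called over the doses, with 7, 4 and 2 at an unadjusted p under 0.05. Among 10 pericyte markers 1 fell, Anpep (1.64% of all genes tested fell), and 9 had a slope below 0.

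The same slope was fitted in the 19 arsenate arrays of the 1-week harvest, from mice of 76 days, to ask whether the trend was already there. After 1 week 16 genes had a called slope (0.117%), 11 that rose (0.0804%) and 5 that fell (0.0366%), and 1966 had an unadjusted p under 0.05. The slope at 12 weeks differed from that at 1 week in 1136 genes (8.31%), 467 with a higher (3.41%) and 669 with a lower slope at 12 weeks (4.89%). Of the 535 genes with a called slope at 12 weeks, 350 were called for this difference and 403 had the opposite sign at 1 week. These counts share the 12-week arrays with the rule that chose the genes, and harvest, age and time on arsenate cannot be told apart. RNA quality differed too. The RNA integrity number at 1 week was 7.2 to 9.7 at 2 ppm and 8.4 to 9.3 in the 3 mice measured at 10 ppm. In the 20 arrays of 12 weeks it was 9.3 to 9.8. Poly-A controls averaged 10.73, 11.05, 10.75 and 10.67 in dose order at 1 week. The part of these measures in the counts was not tested. Egr1 had a slope of -0.81 ± 0.12 at 12 weeks and 0.12 ± 0.11 at 1 week, a difference of -0.93 ± 0.16 (adjusted p = 0.000815). For Pdia4 it was 0.31 ± 0.08 at 12 weeks and -0.26 ± 0.07 at 1 week (difference 0.57 ± 0.10, adjusted p = 0.00126). Nqo1 had 0.26 ± 0.05 at 12 weeks and 0.05 ± 0.04 at 1 week.

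**Figure D5:**
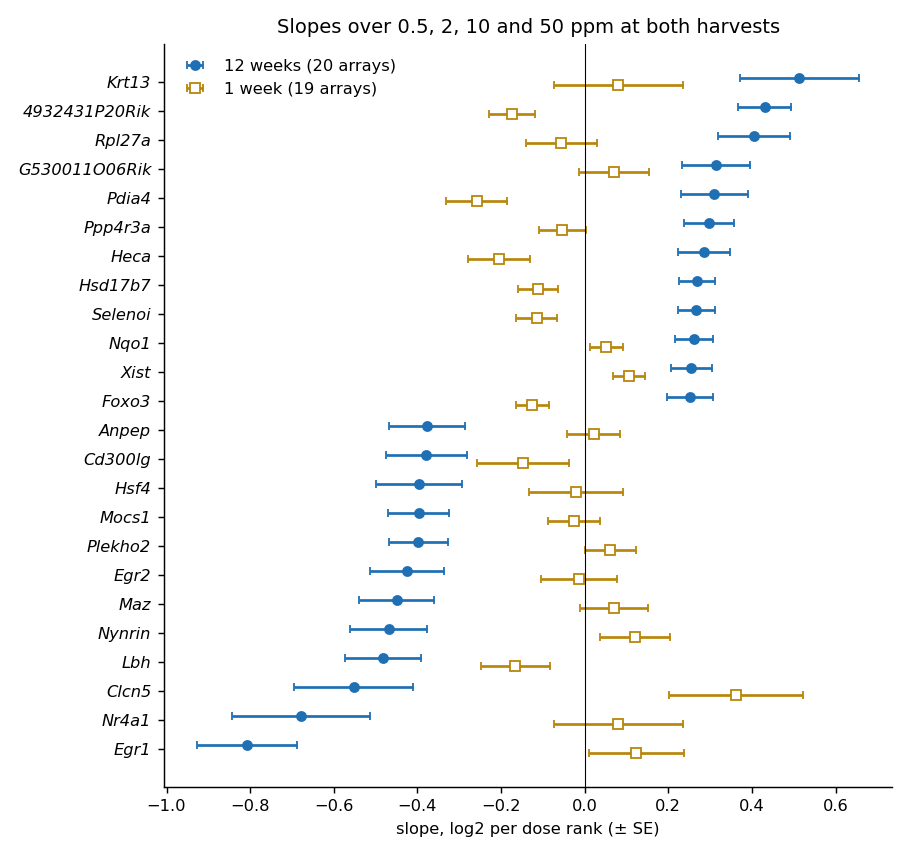
Slopes in log2 per dose rank ± SE of the 12 steepest rises and 12 steepest falls of 12 weeks, at 12 weeks (filled circles, 20 arrays) and at 1 week (open squares, 19 arrays). The 12-week slopes chose the genes. The 1-week slopes lie nearer to 0 for all 24, and have the opposite sign in 4932431P20Rik, Pdia4 and Clcn5 among others.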

How the data were processed

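RNA of 1 bladder per mouse was biotin-labelled and measured on Affymetrix Mouse430_2 arrays, following the maker's standard protocol, per the labels' protocols. The authors deposited linear intensities per probe set, made with GCOS 1.0 per the submitters' processing notes, which name no algorithm settings. In the deposited intensity values every array had a 2% trimmed mean of 500.003 to 500.004, which fixes the overall level of an array and leaves its spread free.

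From these, log2(intensity + 16) was computed. Of 45101 probe sets, 64 were controls, 34945 named a single gene, 932 several and 9160 none. A probe set was kept if at least 4 of the 20 arrays had it above their own 40th percentile, and the brightest per gene was used, leaving 13676 genes. Slopes and contrasts were fitted with limma 3.58.1 (lmFit, eBayes with trend; R 4.3.3) over the 20 arrays, without the water arrays. The method was tested on simulated data. Array measures were compared by permutation, with 100000 resamples for slopes and exactly between pairs of doses. Intensities carry no read depth, and the number of arrays limits the precision. Each array is a separate mouse.

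Named genes were the 12 steepest called slopes each way with a group mean of 7 or more, the 5 largest each way of each other contrast, called list members with up to 4 further members by smallest p, and 8 arsenic-related genes whatever their value. The members and the 47 lists (907 of 982 entries matched) were chosen with earlier results of these data known. The design also foresaw permutation tests of marker list means. These were not run, and the lists are described by levels. Alternatives changed the offset, scaling, filter, probe sets, weights, covariates, dose scale, replicate block and the mice or groups included. The pairs of doses were added after seeing the data.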

Additional observations from a re-analysis of the deposited data

Results flagged for a closer look

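In 29 of 400 groups of 5 mice examined, the highest or lowest mouse stood apart from the next by more than Dixon's 95% critical value of the ratio of that gap to the range; chance flags about 1 in 20 groups. Mouse 1 of the 0.5 ppm group accounted for 7 of the 29. It was the highest of its group in Ugdh (13.58 against 13.09 in the next mouse, ratio 0.857), Trp63 (11.77 against 10.98, 0.762), Gsk3b (10.12 against 9.65, 0.782), Ppp4r3a (8.71 against 7.79, 0.726), Xist (13.4 against 13.1, 0.815) and the array median (7.085 against 6.956, 0.817). It was the lowest in Lbh (9.21 against 10.07, 0.762). Its poly-A level of 9.897 and OD260 of 1.805 were also the lowest of its group. In that group mouse 4 had the highest OD260 (2.71 against 2.039, 0.741) and mouse 5 the highest Gapdh 3' minus 5' log2 difference (-0.403 against -0.517, 0.757).

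In the 2 ppm group the lowest mouse stood apart in Pdia4 (7.89 against 8.87, 0.745), Clcn5 (9.73 against 10.74, 0.897), Lbh (9.86 against 10.28, 0.801), Mocs1 (8.67 against 9.49, 0.716), Rbfox2 (9.32 against 9.54, 0.758), As3mt (8.24 against 8.55, 0.739) and Mt1 (12.95 against 13.08, 0.842). The highest did so in Ssc5d (7.78 against 7.19, 0.773), Krt18 (15.03 against 14.89, 0.808) and the RNA integrity number (9.8 against 9.6, ratio 1). In the 10 ppm group the highest mouse stood apart in Lbh (8.94 against 8.72, 0.73), Tmem25 (8.41 against 8.2, 0.725), Psmd11 (12.88 against 12.75, 0.734) and Acta2 (15.65 against 15.32, 0.809). In the 50 ppm group the lowest did so in Heca (10.12 against 10.32, 0.759) and Sox4 (12.46 against 12.65, 0.742). The highest did so there in Rbfox2 (10.91 against 9.97, 0.771), Retnla (12.77 against 11.16, 0.742), Hnrnpk (13.5 against 13.28, 0.77) and Psmd11 (13.05 against 12.83, 0.737).

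Slopes at 12 and 1 week were set against each other by limma's test of the difference, and the 5 largest called differences each way are given, among genes with a group mean of 7 or more. The difference was positive in 4932431P20Rik (0.6, slope 0.43 at 12 weeks and -0.17 at 1 week), Pdia4 (0.57, 0.31 and -0.26), Tmed5 (0.51, 0.17 and -0.34), Apoa2 (0.5, 0.02 and -0.48) and Sdc4 (0.49, 0.14 and -0.35). It was negative in Egr1 (-0.93, -0.81 and 0.12), Clcn5 (-0.91, -0.55 and 0.36), Nr4a1 (-0.76, -0.68 and 0.08), Nptx2 (-0.6, -0.22 and 0.38) and Nynrin (-0.59, -0.47 and 0.12).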

How the results depend on the processing

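The deposited slope called 535 genes. Dose slopes called 356 genes with no filter on dim probe sets, 1785 with array weights, 172 with a minimum of 1.5-fold over the 3 steps, 0 over ppm in place of ranks and 825 with water added at rank 0. Without the 0.5, 2, 10 or 50 ppm group it called 101, 115, 142 or 952. The step between the pairs of doses called 1132 and the steps within them 0. With the poly-A level as a covariate the slope called 0 genes, 50 against 0.5 ppm 504, 10 against 2 ppm 736, 50 against 10 ppm 38 and the departure from a line 640. With OD260 the slope called 0, 50 against 0.5 ppm 3, 10 against 2 ppm 0 and the harvest difference 1914. With the hybridization controls the slope called 73 and the departure 9, and with the RNA integrity number the slope called 345 and 50 against 0.5 ppm 39. Median centring left 86 genes for 50 against 0.5 ppm and 114 for 10 against 2 ppm, and quantile normalization gave a departure in 7. The cause of these shifts was not tested.

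Leaving out 1 mouse gave 179 to 1398 genes for the slope, 12 to 964 for 50 against 0.5 ppm, 0 to 5 for 2 against 0.5 ppm, 58 to 346 for 10 against 2 ppm, 0 to 2 for 50 against 10 ppm, 0 to 76 for the departure and 705 to 1997 for the harvest difference. The highest values were reached without mouse 1 of the 0.5 ppm group for the slope, 50 against 0.5 ppm, 10 against 2 ppm and the harvest difference. For 50 against 0.5 ppm, counts were 29, 29, 12 and 50 without mice 2 to 5 of the 0.5 ppm group and 76, 45 and 19 without mice 2, 4 and 5 of the 50 ppm group. For 10 against 2 ppm, they were 90, 106, 58 and 85 without mice 1, 2, 3 and 5 of the 2 ppm group and 80, 104 and 83 without mice 1, 4 and 5 of the 10 ppm group. The harvest difference fell to 735 without mouse 3 of the 0.5 ppm group and to 713 and 705 without mice 4 and 5 of the 50 ppm group at 12 weeks.

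Mouse numbers are shared between groups. Deviations of same-numbered mice had a median correlation of 0 (-0.27 to 0.25, 3 of 30 above 0.1), and 5 of 20 mice correlated best with their own number, so the numbers were not taken as pairs. With a replicate block 439 genes were called for the slope, 161 for 50 against 0.5 ppm, 127 for 10 against 2 ppm and 1090 for the harvest difference.

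Over the 81 named genes and all settings, 2437 values kept direction and call, 857 lost the call, 7 gained it and 14 changed sign. The sign changes were Rps18 after quantile normalization (-0.0126), Mt1 with median centring (0.00551), the poly-A level (0.0815), OD260 (0.00305), without 2 ppm (0.0156) and without 50 ppm (0.0672), and in fits without 1 mouse (-0.0423 to 0.0276). As3mt changed sign over ppm (0.00046) and without 0.5 ppm (0.0553), and Mt2 without 50 ppm (0.0228).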
